A study of Mus musculus with 6 samples.

Results

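The 39 genes described here build the beating cilia of the airway lining or switch on their construction. They were listed by symbol for their function: regulators of motile cilia, dyneins, radial spoke proteins, tektins and other proteins of the ciliary shaft, the axoneme. A member was any probe set, meaning a group of array probes read as 1 value, whose platform annotation named only 1 of these symbols. By this rule 59 of 45101 probe sets were members, and they covered 38 of the 39 genes, since Cfap44 matched no probe set, out of 18194 genes that the array named in this way. The arrays measured RNA from the lungs of 6 mice, all wild type, of which 3 ate a control diet and 3 a high fat diet, and each mouse had its own array. No allele or agent other than the diet was named for either group. What the diets held, how long they lasted, and the strain, sex and age of the animals are not stated in the labels. The comparison asks which lung transcripts differ with the diet, and mice are called below by the replicate number of their label.

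Motile cilia move mucus along the airways, and in the lung they stand on multiciliated cells, a small share of all lung cells. Inside each cilium, outer doublets of microtubules surround a central pair, dynein motors between the doublets drive the beat, and radial spokes and nexin links shape it. The transcription factor Foxj1 and factors of the RFX family switch on most of the genes for these parts. In lung tissue, fewer ciliated cells and less ciliary RNA per cell cannot be told apart, and the same holds for more.

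The values are MAS5 signals, the Affymetrix summary of a probe set on a linear scale, with each array scaled to a trimmed mean of 500. Markers that define lung were bright in every mouse: the signal of Sftpc, the surfactant protein of alveolar type II cells, lay between 32996 and 69407. The signal of Scgb1a1, the secretoglobin of club cells, lay between 38296 and 75983. The median signal of an array was 143.3 to 150.3 in the control mice and 113.4 to 128.7 in the high fat mice, and the Gapdh control probe sets had a 3' to 5' signal ratio, a measure of RNA integrity and labelling, of 0.743 to 0.795 and of 0.854 to 0.957. The part of either measure in the results was not tested. High fat mouse 1 stood apart from the other mice in the cilia genes, so results are also given without it.

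Most tested cilia genes had higher signals in the high fat mice, by amounts that differed widely between those mice. Of the 59 member probe sets, 41 passed the filter on dim signals (a mean log2 signal of at least 6.14, a signal of 70.3) and were tested, and 18 did not pass. Of these 18, 0 were higher in all high fat mice than in all control mice and 2 were lower. The shares over all tested probe sets were 14.6 and 21.7 percent. With the filter dropped, most of the 18 had negative log2 differences, at signals where values are noisy. By limma with Benjamini-Hochberg adjustment over 27022 probe sets, 7 of the 41 were called higher at an adjusted p under 0.05, or 17.1 percent, beside 4.63 percent of all tested probe sets. They were those of Foxj1, Dynlrb2, Rsph1, Rsph4a, Ccdc40, Drc1 and Cfap126. None (0) of the 41 was called lower, and 0 had an unadjusted p under 0.05 in that direction, beside 8.27 percent of all probe sets called lower. With 1 probe set per gene and adjustment over 12689 genes, 2 of the 36 tested member genes were called, Dynlrb2 and Cfap126, or 5.56 percent, beside 4.56 percent of all genes called higher, and 0 were called lower, beside 2.2 percent. That share is close to the background and is no result about the members as a group. The other 5 genes had adjusted p between 0.0571 and 0.061 over genes, and 13 of the 36 had an unadjusted p under 0.05 and a higher signal, beside 16.2 percent of all genes.

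The log2 difference, high fat minus control, was positive in 34 of the 36 tested genes, beside 56.4 percent of all tested genes. Its median was 0.46 over the tested members and 0.06 over all tested genes, and it ranged from -0.23 for Dnah9 to 1.2 for Dynlrb2. All 3 high fat mice lay above all 3 control mice in 15 of the 36 genes, beside 19.7 percent of all genes, and all 3 lay below in 0, beside 12.1 percent. Members that passed the filter could do so through the brighter group, so these counts describe the tested members only. The level of an array shifts all of these values together: with each array centred on its median, the median difference was 0.73 in the cilia genes and 0.33 in all genes. Without high fat mouse 1 the medians were 0.23 and 0.05, 31 of 36 differences were positive, and the 2 gene calls, Dynlrb2 and Cfap126, stood beside 2.86 percent of all genes called higher.

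**Figure D1:**
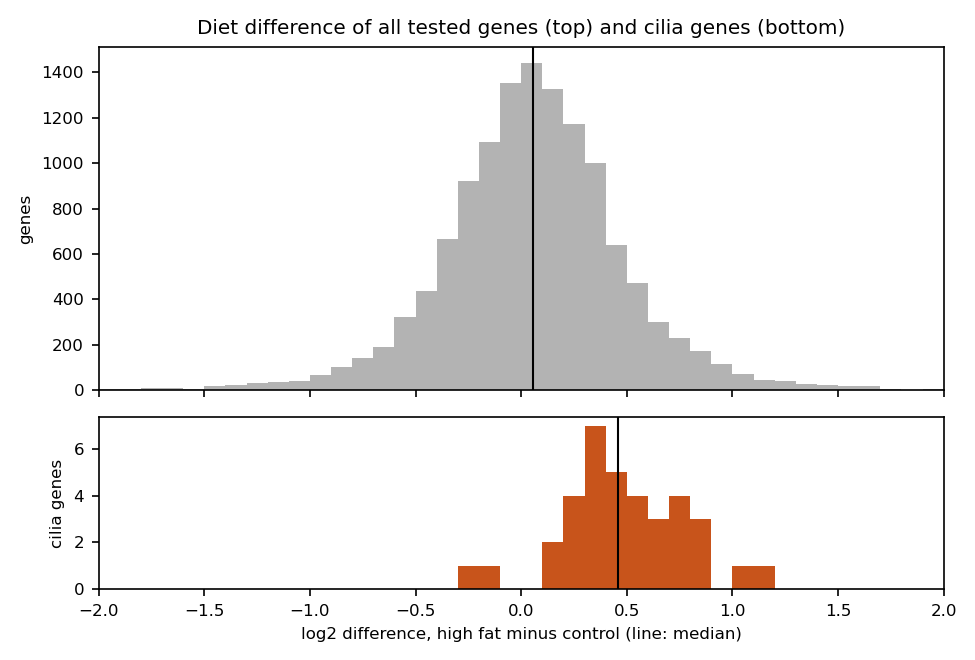
Histograms of the log2 difference, high fat minus control, of all 12689 tested genes (top) and of the 36 tested cilia genes (bottom), with the number of genes on the vertical axis and a line at the median. The cilia genes had a median of 0.46 and lay from -0.23 to 1.2, within the range of all genes, whose median was 0.06.

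The regulators come first. Foxj1, the master transcription factor of motile ciliogenesis, had signals of 516, 437 and 364 in control mice 1, 2 and 3 and of 1361, 585 and 909 in high fat mice 1, 2 and 3. Every high fat mouse was above every control mouse, but high fat mouse 2 lay close to the highest control. The means were 439 ± 75.9 and 952 ± 390 (SD, n = 3 each), a fitted 2.07-fold rise with a log2 difference of 1.05 (SE 0.28, limma adjusted p = 0.044 over probe sets). The RFX factors, which bind X-box sequences in the promoters of ciliary genes, were not called. The brightest Rfx2 probe set read 180, 169 and 131 in the control mice and 183, 220 and 265 in the high fat mice, with a log2 difference of 0.47 (adjusted p = 0.217). These groups did not overlap, but high fat mouse 1 was barely above control mouse 1. A second tested Rfx2 probe set went the other way, with a log2 difference of -0.53 (adjusted p = 0.449), so the probe sets of this gene disagreed. Rfx3 had a log2 difference of 0.54 (adjusted p = 0.181), and its groups overlapped through high fat mouse 3. Without high fat mouse 1, the adjusted p of Foxj1 was 0.0854 over probe sets.

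Because RFX and forkhead factors act through promoters, the stretch around the start site of each gene was searched for their letters. RefSeq promoter windows of assembly GRCm38.p6, 250 bases before the start and 50 after, were found for 34 of the 39 genes. The names without an entry were Foxj1, Rsph1, Rsph4a, Cfap53 and Tppp3. Letters of the X-box, GTNNCC and GNAAC with 3 free bases between them on either strand, were in the windows of 7 of the 34 genes, or 20.6 percent, against 2.49 percent of 27025 genes of the table. The shorter GTTGCC, which lies inside some X-box matches and was searched after values had been seen, was in 16 of the 34, or 47.1 percent, against 14.1 percent. The forkhead core TGTTTA was in 9, or 26.5 percent, against 15.1 percent. The 120 bases before the start are shown for 5 genes, written 5' to 3' along the gene with capitals for X-box or GTTGCC letters on either strand. They include 2 genes called on the array with a GTTGCC match, Dynlrb2 and Drc1. The other 3, Pifo, Hydin and Spag16, had whole X-box letters at the searched spacing and were not called. Only a spacing of 3 free bases was searched. In Dynlrb2, GTTGCC is followed by GCAAC after 2 bases, so it was not counted as whole X-box letters.
Dynlrb2, chr8:116504895-116505014, plus strand: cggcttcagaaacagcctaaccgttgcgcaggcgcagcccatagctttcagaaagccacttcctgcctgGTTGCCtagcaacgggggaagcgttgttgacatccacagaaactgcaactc
Drc1, chr5:30281273-30281392, plus strand: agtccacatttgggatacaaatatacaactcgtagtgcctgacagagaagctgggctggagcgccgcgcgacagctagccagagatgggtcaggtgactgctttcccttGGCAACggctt
Pifo, chr3:106001498-106001617, minus strand: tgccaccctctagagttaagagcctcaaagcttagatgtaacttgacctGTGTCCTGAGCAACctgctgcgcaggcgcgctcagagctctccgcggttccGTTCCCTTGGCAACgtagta
Hydin, chr8:110266857-110266976, plus strand: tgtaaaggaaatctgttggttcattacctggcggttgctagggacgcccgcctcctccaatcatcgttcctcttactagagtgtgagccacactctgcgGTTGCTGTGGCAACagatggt
Spag16, chr1:69826850-69826969, plus strand: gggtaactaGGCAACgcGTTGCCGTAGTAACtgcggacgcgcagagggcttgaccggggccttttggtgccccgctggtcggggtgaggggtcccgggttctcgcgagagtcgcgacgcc
In Dynlrb2 the letters lay 51 to 46 bases before the start, and in Drc1, on the reverse strand, 11 to 6 bases before it. Hydin had whole X-box letters 21 to 8 bases before its start, and Spag16 had them 103 to 90 bases before, beside a GTTGCC in the other direction. Over tested genes, the median log2 diet difference was 0.5 in the 14 with GTTGCC letters and 0.33 in the 17 without. It was 0.42 both in the 6 tested genes with whole X-box letters at the searched spacing and in the 25 without, Dynlrb2 among these. Other spacings were not searched, so these groups do not compare genes with and without an X-box. Letters are not binding, and binding was not measured.

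Dyneins are the motors of the beat, and 7 of the 9 tested dynein genes had positive differences, with a median log2 difference of 0.32. Dynlrb2, a roadblock-type dynein light chain, had signals of 2292, 2741 and 2562 in the control mice and of 8280, 5050 and 4702 in the high fat mice. The lowest high fat mouse was far above the highest control mouse, and high fat mouse 1 was the highest by a wide margin. The means were 2531 ± 226 and 6011 ± 1973 (SD, n = 3 each), a 2.3-fold rise with a log2 difference of 1.2 (SE 0.2, limma adjusted p = 0.0107 over probe sets and 0.0149 over genes). This call held at the level of probe sets with any 1 mouse left out, with adjusted p from 0.00923 to 0.0469. Over genes its adjusted p was 0.0546 without control mouse 2 and 0.0592 without control mouse 3.

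The heavy chains that form the dynein arms were not called. Of the inner-arm heavy chains, Dnah2 read 139, 190 and 157 in the control mice and 325, 201 and 230 in the high fat mice (log2 difference 0.62, adjusted p = 0.135). Dnah7a read 97.9, 129 and 88.4 against 241, 160 and 161 (log2 difference 0.83, adjusted p = 0.0882). In both genes the groups did not overlap and high fat mouse 1 was the highest. Dnah1 and Dnah6, also of the inner arms, overlapped between groups, with log2 differences of 0.3 and 0.32. The outer-arm heavy chains had the smallest differences of the 7 heavy chains: the log2 difference was -0.12 for Dnah5, -0.23 for Dnah9 and 0.23 for Dnah11, all with overlapping groups. Dnah9 was at 603 in high fat mouse 1 but at 335 and 363 in high fat mice 2 and 3, below its control range of 461 to 515. The sign for Dnah5 and Dnah9 turned with each array centred on its median, to 0.15 and 0.05, and that for Dnah5 also with quantile normalization, to 0.04.

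Dnali1, the light intermediate chain of the inner arms, was measured by 2 tested probe sets that went the same way. The brighter read 786, 567 and 755 in the control mice and 1419, 816 and 836 in the high fat mice, with a log2 difference of 0.51 (adjusted p = 0.173). The dimmer read 319, 297 and 188 against 894, 431 and 333, with a log2 difference of 0.95 (adjusted p = 0.113). Neither overlapped between groups and neither was called. Zmynd10, a cytoplasmic factor that helps to assemble dynein arms before they enter the cilium, read 253, 261 and 214 against 568, 362 and 338. Its groups did not overlap, and its log2 difference of 0.77 narrowly missed the threshold (adjusted p = 0.0599).

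The radial spokes link the outer doublets to the central pair, and both called spoke genes encode proteins of the spoke head. Rsph1 had signals of 1062, 1041 and 966 in the control mice and of 1702, 1277 and 1417 in the high fat mice. The control mice lay within a narrow band and all high fat mice lay above it. The means were 1023 ± 50.4 and 1466 ± 217 (SD, n = 3 each), a 1.42-fold rise (log2 difference 0.51, SE 0.14, limma adjusted p = 0.042 over probe sets). Rsph4a had signals of 482, 492 and 471 against 1031, 609 and 794, with control mice even closer together. Its means were 482 ± 10.1 and 811 ± 212, a 1.65-fold rise (log2 difference 0.72, SE 0.19, adjusted p = 0.0424). Rsph9, the other spoke head gene, was at 918 in high fat mouse 1 but at 500 and 398 in the others, and overlapped its control range of 404 to 448 (log2 difference 0.42, adjusted p = 0.335).

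The ruler and nexin link genes had the highest median log2 difference of the roles with more than 1 gene, 0.78 over 3 genes, a group too small for more than description. Ccdc40, which with Ccdc39 forms the ruler that sets the spacing of spokes and inner arms along the doublet, had signals of 335, 314 and 319 in the control mice and of 658, 535 and 422 in the high fat mice. No control mouse came near the lowest high fat mouse. The means were 323 ± 10.7 and 538 ± 118 (SD, n = 3 each), a 1.64-fold rise (log2 difference 0.72, SE 0.19, limma adjusted p = 0.0406). Drc1, a scaffold protein of the nexin-dynein regulatory complex, had signals of 420, 294 and 345 against 787, 457 and 708. High fat mouse 2 was only just above control mouse 1. Its means were 353 ± 63.3 and 651 ± 173, a 1.81-fold rise (log2 difference 0.86, SE 0.23, adjusted p = 0.044). Ccdc39 had a like difference of 0.78, but control mouse 2 at 450 lay above high fat mouse 3 at 367, and it was not called (adjusted p = 0.128).

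**Figure D2:**
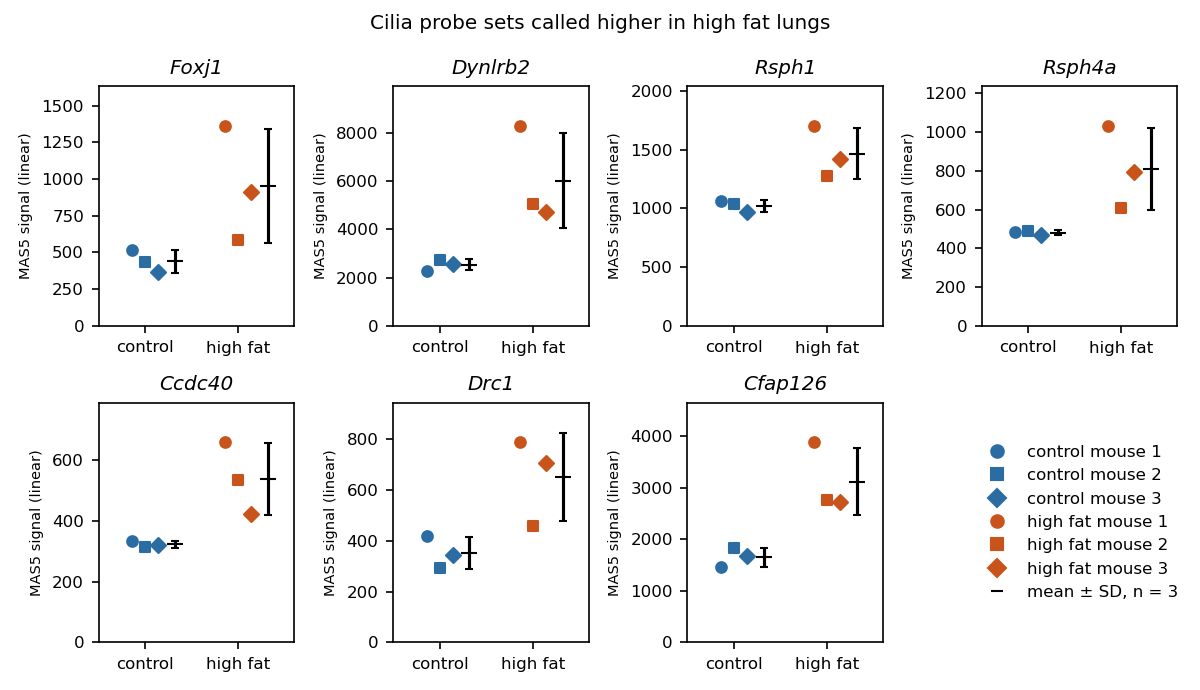
Signal in each mouse for the 7 cilia genes whose probe set was called, with control and high fat mice side by side; points are mice and bars are the mean and SD of 3 mice. In each gene the 3 high fat mice lie above the 3 control mice, and high fat mouse 1 is the highest, at 8280 for Dynlrb2 and 1361 for Foxj1.

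The 4 tested central pair genes did not separate the groups. Hydin, a very large protein of a central pair projection, had a log2 difference of 0.46 that came from high fat mouse 1, at 660 beside 312 and 324 in high fat mice 2 and 3 and 251 to 330 in the control mice. Spag16 had a log2 difference of 0.13, Cfap69 of 0.25 and Cfap70 of 0.46, and 0 of the 4 was called (the lowest adjusted p was 0.27, for Cfap70) or had an unadjusted p under 0.05. Spag6 and Spag17 were measured only by probe sets under the filter, and no difference is given for them. The 3 dim probe sets of Spag16 had signals of 65.6 or less in every mouse, and 2 of them were lower in all high fat mice than in all control mice. The dimmest read 31.6, 8.6 and 24.7 in the control mice and 2.12, 1.27 and 2.69 in the high fat mice, a range where MAS5 values are noisy. Its adjusted p was 0.0745 with the filter dropped, in the opposite direction to the bright Spag16 probe set.

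Proteins inside or along the doublet microtubules were positive in all 7 tested genes, with a median log2 difference of 0.39, and 1 was called. Cfap126, also named Flattop, which acts in the placing of basal bodies, had signals of 1461, 1826 and 1668 in the control mice and of 3877, 2762 and 2721 in the high fat mice. The groups were far apart, with high fat mice 2 and 3 nearly equal. The means were 1652 ± 183 and 3120 ± 656 (SD, n = 3 each), a 1.87-fold rise (log2 difference 0.9, SE 0.16, limma adjusted p = 0.0127 over probe sets and 0.0176 over genes). Over genes the call was lost with control mouse 1, 2 or 3 left out, at adjusted p of 0.0554, 0.0521 and 0.0665. The tektins, filament proteins built into the doublets, had smaller differences and overlapped between groups: the log2 difference was 0.42 for Tekt1, 0.34 for Tekt2 and 0.39 for Tekt4. Enkur, Cfap52 and Cfap53, which sit on the inner face of the doublets, had differences of 0.32, 0.39 and 0.68 and overlapped too. A second Cfap52 probe set had a difference of -0.01, so its probe sets did not show the same size.

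Among the remaining genes 3 of 6 separated the groups without being called, beside 19.7 percent of all genes with the high fat mice higher and no overlap. Pifo, or Pitchfork, a protein of cilia and basal bodies, read 873, 850 and 689 in the control mice and 1540, 974 and 1010 in the high fat mice (log2 difference 0.52, adjusted p = 0.109). Tppp3, of the tubulin polymerization promoting family, was the brightest member and among the steadiest, at 7218, 7188 and 7359 against 10445, 8925 and 8154 (log2 difference 0.33, adjusted p = 0.109). Ccdc113, a protein of centriolar satellites, read 194, 252 and 246 against 548, 314 and 256, so that high fat mouse 3 lay just above the control mice (log2 difference 0.62, adjusted p = 0.175). In these 3 genes high fat mouse 1 was again the highest. The adenylate kinases Ak7 and Ak8 had differences of 0.33 and 0.27, with overlap. Cfap43, which tethers dynein heads to the doublet, had 2 tested probe sets that disagreed, with log2 differences of 0.19 and -0.62 (adjusted p = 0.65 and 0.243).

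**Figure D3:**
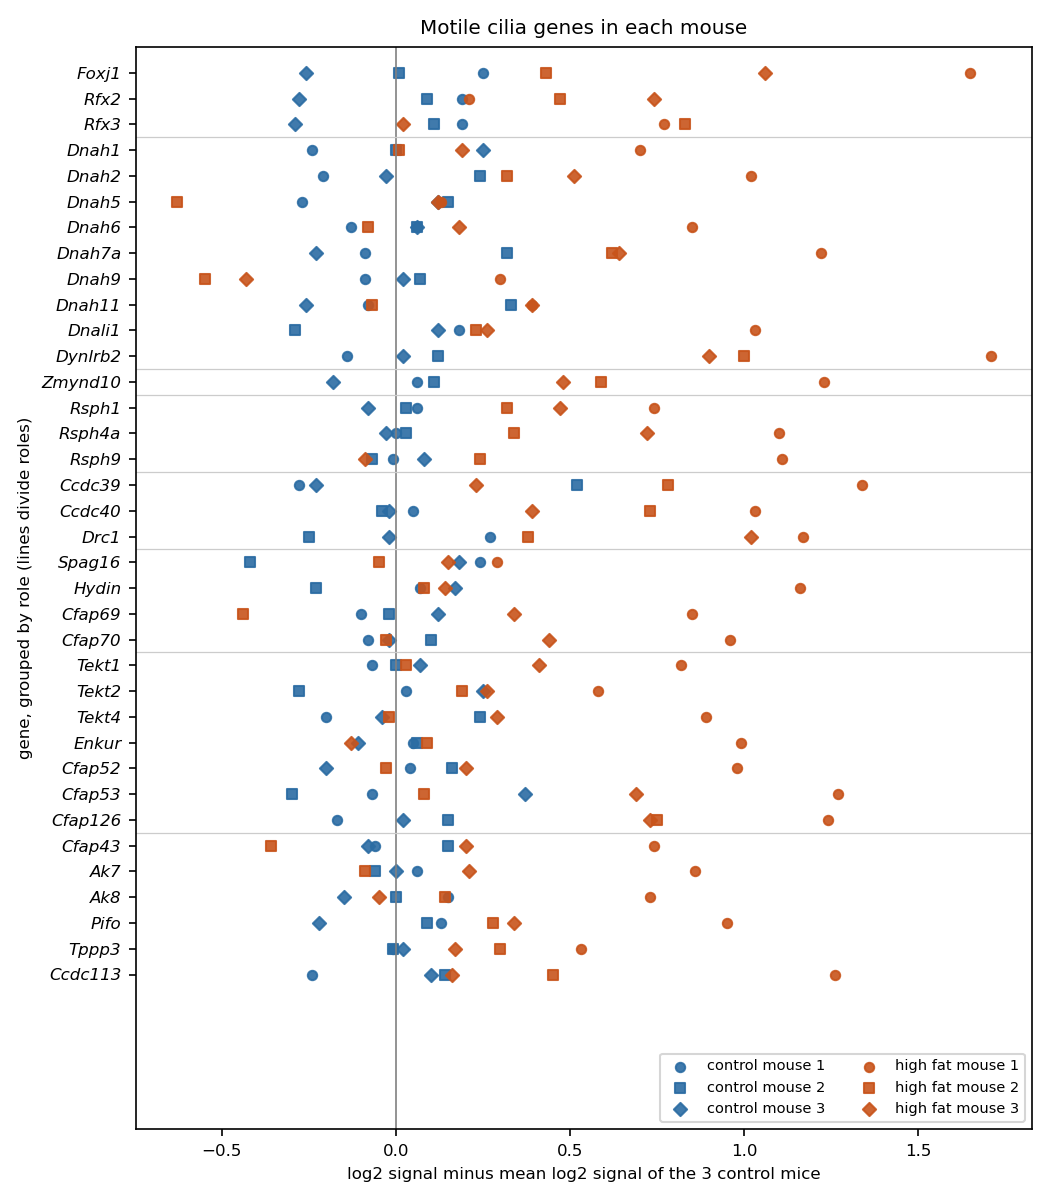
Log2 signal of each of the 36 tested cilia genes in each mouse, minus the mean log2 signal of the 3 control mice (horizontal axis), with genes in rows grouped by role. High fat mouse 1 (orange circles) is the rightmost point in 32 of the 36 genes, and high fat mice 2 and 3 lie closer to the control mice.

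High fat mouse 1 carried the largest share of the difference. It had the highest signal of the 6 mice in 32 of the 36 tested genes, beside 22.8 percent of all tested genes, and the exceptions were Rfx2, Rfx3, Dnah5 and Dnah11. It lay above all control mice in 35 genes, high fat mouse 2 in 19 and high fat mouse 3 in 26, beside 39.1, 37.2 and 38.5 percent of all genes. Its log2 signal exceeded the mean of high fat mice 2 and 3 by a median of 0.69 over the genes. Averaged over the 36 genes, the log2 signal relative to the control mean was 0.91, 0.2 and 0.34 in high fat mice 1, 2 and 3, and -0.01, 0.04 and -0.02 in the control mice. The control mice were thus nearly equal, while the high fat mice were spread: the median SD of the log2 signal was 0.19 in the control mice and 0.44 in the high fat mice, against 0.17 and 0.21 over all genes. The SD was larger in the high fat mice in 33 of the 36 genes, beside 57.8 percent of all genes.

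Without high fat mouse 1, 2 of the 7 called probe sets stayed called, those of Dynlrb2 (adjusted p = 0.00923) and Cfap126 (adjusted p = 0.0191), beside 3.15 percent of all probe sets called higher. Leaving out control mouse 1, 2 or 3 kept 2, 2 and 1 of the 7, and leaving out high fat mouse 2 or 3 kept 6 and 3. Dynlrb2 was the one that stayed without control mouse 3, where Cfap126 had an adjusted p of 0.0524. Each such fit also has fewer mice.

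**Figure D4:**
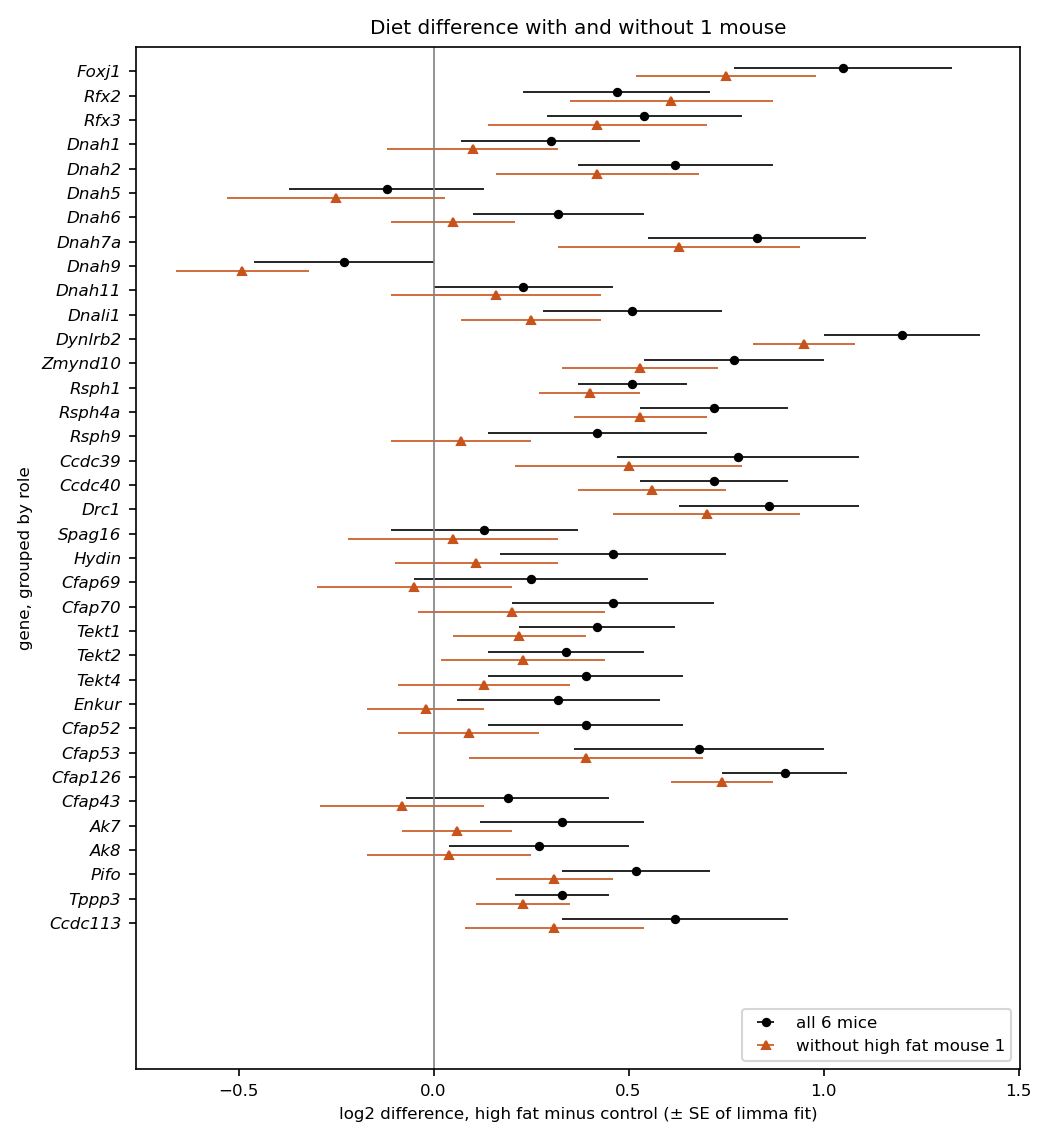
Log2 difference, high fat minus control, of each tested cilia gene with all 6 mice and without high fat mouse 1, with standard errors as bars. Most differences shrink without that mouse, the median moving from 0.46 to 0.23, while those of Dynlrb2 and Cfap126 stay far from 0.

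Other genes of the motile cilium were mostly higher in the high fat mice, with few calls. Of 136 further symbols for axonemal, assembly and tether proteins, 79 were on the array and 65 were tested. The symbols include older and newer names of the same genes, so those not on the array are not all unmeasured genes. Over genes, 2 of the 65 were called higher, or 3.08 percent beside the same 4.56 percent, and 0 lower (2 had an unadjusted p under 0.05 in that direction). Mycbpap, a protein that binds a Myc partner and is found in the axoneme, read 166, 103 and 158 in the control mice and 460, 341 and 229 in the high fat mice, a 2.37-fold rise (log2 difference 1.24, limma adjusted p = 0.047 over genes). Spa17, an axonemal protein also known from sperm, read 534, 581 and 576 against 1255, 896 and 892, a 1.78-fold rise (log2 difference 0.83, adjusted p = 0.0235). Neither gene overlapped between groups. With each of the 6 mice left out in turn, Mycbpap was called in 1 fit (adjusted p 0.0376 to 0.136) and Spa17 in 3 (0.0382 to 0.0799), and neither without any 1 of the control mice. The difference was positive in 58 of the 65, and its median was 0.38, and 0.19 without high fat mouse 1, which was the highest of the 6 mice in 53 of them.

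Genes that act earlier in ciliation and genes of ciliary transport had smaller medians. The multiciliated cell programme drives centriole amplification and the exit from the cell cycle. Of its 20 tested genes, 0 were called in either direction by limma, beside 6.75 percent of all genes. Of these, 5 had an unadjusted p under 0.05 and a higher signal, 0 a lower one, and the median log2 difference was 0.21. All 3 high fat mice lay above all 3 control mice in 4 of them, beside 19.7 percent of all genes, and below in 0. The 4 were Ccno, Cetn4, Trp73 and Myb, with log2 differences of 1.35, 1.01, 0.85 and 0.37, while 6 programme genes had negative differences. Of the 27 symbols listed for this programme, 24 were on the array. Of 42 tested genes for intraflagellar transport and the BBSome, which carry cargo in primary and motile cilia alike, 1 was called higher, or 2.38 percent beside 4.56 percent of all genes, and 0 lower (1 had an unadjusted p under 0.05 and a lower signal), with a median of 0.25. It was Ttc30b, a subunit of the transport train, at 839, 768 and 685 against 1337, 1097 and 1046, without overlap (log2 difference 0.6, adjusted p = 0.0441). With any 1 mouse left out Ttc30b was not called, at adjusted p from 0.0572 to 0.15. The differences between these medians and that of the axonemal genes were not tested.

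Markers of the cells that carry and surround motile cilia were read from the same arrays. Of 16 tested ciliated cell markers whose symbols were not in the axonemal gene lists, 2 rose, or 12.5 percent beside 4.56 percent of all genes. None (0) fell, beside 2.2 percent, and 0 had an unadjusted p under 0.05 and a lower signal. The median log2 difference was 0.27. These markers were kept apart by symbol only, so some of their proteins can be parts of the axoneme, and 1 was also in the transport list. Both markers that rose carry older symbols of genes that the list of other motile cilia genes holds under newer names. They are therefore not markers apart from that list. Fam183b read 1110, 1164 and 864 against 2262, 2052 and 1651 (log2 difference 0.93, adjusted p = 0.0167), and 1110017D15Rik read 1201, 1307 and 1146 against 2666, 1821 and 1809 (log2 difference 0.76, adjusted p = 0.0322), both without overlap. Their adjusted p lay between 0.0223 and 0.0661 and between 0.0436 and 0.111 with 1 mouse left out. Of 21 tested club and secretory markers, Ldhb, Hp and Gabrp rose, 3 in all or 14.3 percent, and Scgb1a1 itself had a log2 difference of 0.21 (adjusted p = 0.632). The summed signal of the secretory markers was 206831 to 337956 in the control mice and 290507 to 406011 in the high fat mice, highest in high fat mouse 1. A few very bright genes make up most of that sum. The list's mean log2 signal relative to control was 1.03, -0.34 and 0.11 in high fat mice 1, 2 and 3, and -0.24, 0.21 and 0.03 in the control mice. Of 10 pan-epithelial markers, Cldn7, Krt8 and Cdh1 rose, or 30.0 percent, and 3 had negative differences. Of these, Krt7, named after its values were seen, was lower in all high fat mice than in all control mice but was not called (log2 difference -0.32, adjusted p = 0.153). The list's mean log2 signal relative to control was 0.32, 0.37 and 0.22 in high fat mice 1, 2 and 3, so mouse 1 was not the highest there. With 1 mouse left out in turn, Hp and Cdh1 were called in 0 of the 6 fits (adjusted p from 0.0594 and 0.0577 upward), Gabrp and Krt8 in 1, Ldhb in 2 and Cldn7 in 4. The markers that rose were above the filter signal of 70.3 in every mouse, the lowest being Fam183b at 864 in control mouse 3. The part of the number of airway or epithelial cells in the cilia result was not tested.

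Markers of tissue outside the airway lining differed between mice in 3 ways. The cardiac muscle list, 11 of 12 genes tested, summed to 21549 to 48981 in the control mice and to 168367, 45421 and 68400 in high fat mice 1, 2 and 3, and its atrial light chain Myl7 rose (adjusted p = 0.0277, and 0.0376 to 0.0959 with 1 mouse left out). The skeletal muscle list, 10 of 12 tested, summed to 82250 in control mouse 1 and 25482 in high fat mouse 1 and to between 669 and 4348 in the others. Of 9 tested adipocyte markers, 7 rose, or 77.8 percent beside 4.56 percent of all genes, and all 3 high fat mice were high, with a mean log2 signal of 2.24, 1.86 and 1.89 above control. Of the defining markers of these lists, Myl7 read at least 3655 and Adipoq at least 270 in every mouse. Acta1 ran from 68 in control mouse 2, under the filter signal of 70.3, to 20248 in control mouse 1. The part of other tissue in the dissected lung in the cilia result was not tested.

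**Figure D5:**
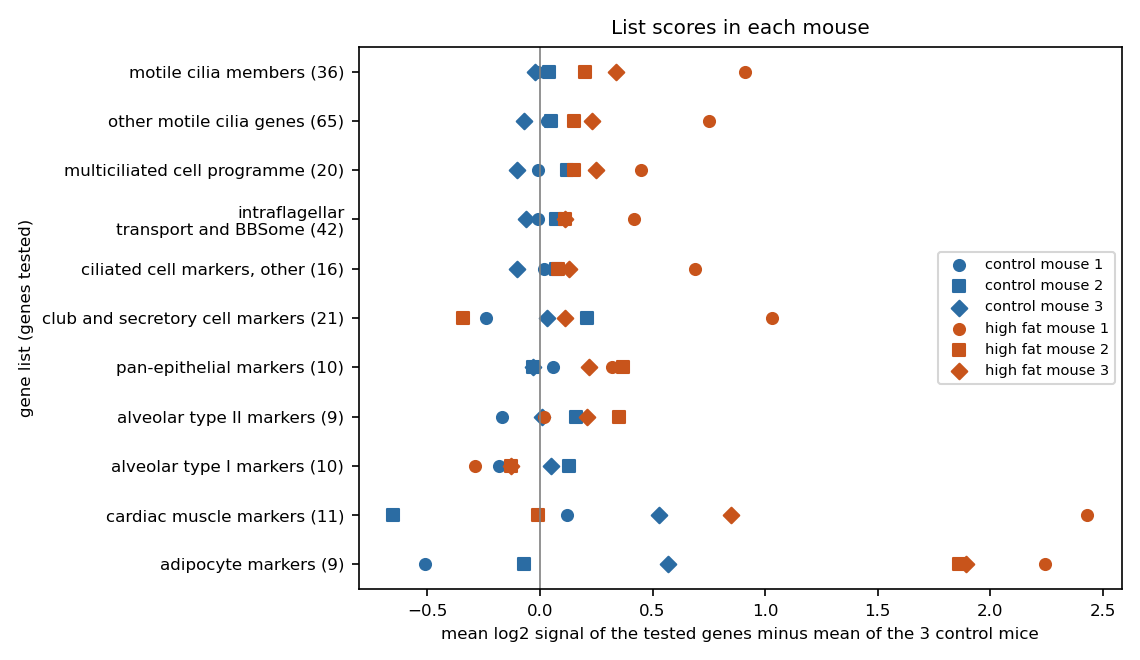
Mean log2 signal of each gene list in each mouse, relative to the mean of the control mice, for the cilia genes, related lists and markers of other cells. The cilia genes are highest in high fat mouse 1 at 0.91, as are cardiac markers at 2.43, while adipocyte markers are high in all 3 high fat mice.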

How the data were processed

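The deposited values are intensity values that the authors computed with MAS5, per the submitters' processing notes. Its version and settings are not given in the sources used. After trimming 2 percent of probe sets at each end, every array had a mean of 500, so only relative levels can be compared, and dim signals are noisy. The 3 arrays per group limit the precision. Values below 1 were set to 1 before log2. Probe sets at or above the 40th percentile of mean log2 signal were tested with limma 3.58.1 in R 4.3.3 (lmFit, eBayes with an intensity trend, two-sided, diet as the only term), with Benjamini-Hochberg adjustment and a call at adjusted p under 0.05. A gene was represented by its brightest tested probe set naming only that gene. Each p-value sets the diet difference against a variance between these mice that is drawn toward that of probe sets of like intensity. The numbers in the sample titles lie in separate ranges for each diet, so a batch that follows them and the diet cannot be told apart.

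The members and all gene lists were chosen with earlier results of these data known. Any member could be named. From the other lists, called genes (up to 8 or 4 a list) and a few defining markers were named. Promoter sequences came from RefSeq (GRCm38.p6). Alternatives changed normalization, centring, an added 32, the filter (none or the 60th percentile), variance model, array weights, replicate block, mice left out and probe set choice. The fit was tested on simulated data.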

Additional observations from a re-analysis of the deposited data

How the results depend on the processing

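Between 1 and 6 member probe sets were called with 1 mouse left out, beside 7 with all mice. The count was 16 with each array centred on its median, 2 with no filter on dim probe sets, 2 without an intensity trend and 2 with both mice numbered 1 left out. With no filter 59 members were tested, and 41 in the others. Of all tested probe sets, 16.1 percent were called higher with centring, 2.13 percent with no filter and 2.68 percent without the trend. Without both mice numbered 1, 544 of 27022 probe sets were called higher. The share in the reported fit was 4.63 percent. For member genes the count was 2, with 0 to 5 when 1 mouse was left out, 8 with quantile normalization, 18 with median centring, 0 without the trend, 5 with robust eBayes and 1 without both mice numbered 1. Of all genes, 5.86 percent were called higher with quantile normalization, 0.827 percent without the trend and 1.95 percent without both mice numbered 1. With no filter it was 2.73 percent. By limma, 9 to 12 genes had an unadjusted p under 0.05 and a higher signal in the 3 fits with 0 calls, which left out control mouse 2, control mouse 3 or the trend. For the other motile cilia genes, 2 called, the counts were 5, 21 and 0 in the quantile, centring and no-trend fits, 1 with no filter, 1 with the 60th percentile filter, 1 with the mean of all probe sets, 0 without both mice numbered 1 and 0 to 2 with 1 mouse left out. Their fits with 0 calls had 5 to 15 genes at an unadjusted p under 0.05 and higher. For intraflagellar transport, 1 called, they were 2, 14 and 0 in the same 3 fits, 2 with the 60th percentile filter, 2 with array weights, 0 without both mice numbered 1 and 0 with any 1 mouse left out (5 to 11 at an unadjusted p under 0.05 and higher). Median centring called 24.1 percent of all genes higher and 1.15 percent lower, beside 4.56 and 2.2 percent in the reported fit. Over probe sets it called 4362 higher and 1086 lower, beside 1251 and 2235. The median log2 difference was 0.73 with centring and 0.23 to 0.6 with 1 mouse left out.

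The labels state no pairing of mice by replicate number. The deviations of same-numbered mice from their group means correlated at 0.1665, 0.1078 and -0.04134, and those of unlike-numbered mice at -0.2133 to 0.1271. With 3 mice per group these values cannot decide whether the numbers pair the mice. With the number as a replicate block, 7 probe sets, 4 member genes, 1 other motile cilia gene and 1 transport gene were called. The 7 probe sets were 6 of those reported and the dimmer one of Dnali1 (adjusted p = 0.042), while Rsph4a, at an adjusted p of 0.05 after rounding, just missed the threshold.

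Of 609 member gene values under the alternatives, 17 changed sign, in 9 genes, and the cause was not tested. With the mean of all probe sets, differences were -0.43 for Rfx2, -0.21 for Dnah1, -1.2 for Spag16, -0.21 for Cfap69 and -0.83 for Cfap43. Without both mice numbered 1 they were -0.02 for Dnah1, -0.01 for Dnah6, -0.1 for Cfap69 and -0.11 for Cfap43. With 1 mouse left out, differences ran from -0.05 to 0.6 for Cfap69, -0.02 to 0.54 for Enkur and -0.08 to 0.47 for Cfap43, each lowest without high fat mouse 1. They ran from -0.26 to 0.13 for Dnah5, highest without high fat mouse 2, and from -0.08 to 0.25 for Spag16, lowest without control mouse 2. Dnah5 was at 0.04 with quantile normalization and 0.15 with centring, and Dnah9 at 0.05 with centring. Signals near background limit Spag6, Spag17 and the dim Spag16 probe sets.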

Other observations

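Genes of mucous and secretory cells of the larger airways, chosen here after their values were seen, had their highest signal in high fat mouse 1. Bpifa1, a secreted protein of the upper and large airways, read 2682, 15700 and 10930 in the control mice and 42997, 3290 and 3607 in the high fat mice. Its relative Bpifb1 read 1655, 2622 and 2618 against 13086, 342 and 1130. Scgb3a1, a secretoglobin, read 6224, 7566 and 8898 against 32456, 1824 and 7191, and the gel-forming mucin Muc5b read 563, 454 and 513 against 1456, 192 and 429. In all 4 genes high fat mouse 1 was above every other mouse and high fat mouse 2 was the lowest of the high fat mice. None was called (limma adjusted p from 0.851 to 0.996 over genes). High fat mouse 1 was also the highest in 32 of the 36 tested cilia genes, beside 22.8 percent of all genes. High fat mouse 2 was the lowest of the high fat mice in 24 of the 36, beside 4282 of 12689 genes. In the cilia genes high fat mice 2 and 3 were on average 0.2 and 0.34 above the control mean on the log2 scale. Whether these patterns have a common source was not tested.

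Some markers of basal cells, also chosen after their values were seen, were high in control mouse 1. Krt5 read 1622 there and 111 or less in the other control mice, Krt15 read 3364 against 7.45 or less, and Trp63, a transcription factor of basal cells, read 253 against 66.9 or less. Other genes of the same list did not follow: Krt17 read 3.94 there and 6.58 and 28.7 in the other control mice, and Ngfr was highest in high fat mouse 1, at 134 against 66.2 in control mouse 1. The cilia genes of control mouse 1 did not stand apart, at -0.01 from the control mean.

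Ccno, a cyclin of centriole amplification, was the gene of the multiciliated cell programme nearest to a call, also picked after its values were seen. It read 36.1, 65.5 and 71.5 in the control mice and 164, 140 and 123 in the high fat mice, without overlap. Its log2 difference was 1.35 (limma adjusted p = 0.0576 over genes). The control signals of 36.1 and 65.5 lay under the filter signal of 70.3, and that of 71.5 lay just above it. Ccno thus passed the filter through its brighter high fat group. Dim signals are noisy, so the size of its difference is uncertain.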
